A study of Mus musculus with 6 samples.

Results

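The genes described here encode the machinery that ends RNA polymerase II transcripts: 29 genes of pre-mRNA 3′ end processing and termination, and 14 genes of the Integrator complex. They were taken by symbol from a list of 43 genes, and all 43 were found once each among the 27179 genes of the table. B16F10, an established line of wild-type mouse melanoma cells, was cultured with 0.01% ozonated olive oil (OZO; 3 cultures) or with 0.01% of the olive oil it is made from (OLO; 3 cultures) for 6 h before RNA-seq, so oil was common to both groups. The value analysed for each gene is the authors' mean log2 CPM (counts scaled to a common library size, on a log2 scale) over the 6 libraries of both groups together. It gives the level of a gene in these cells and not its response to OZO, and it carries no SD. The difference between OZO and OLO was not analysed here.

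Most transcripts of RNA polymerase II end by cleavage and polyadenylation. The cleavage and polyadenylation specificity factor (CPSF) reads the hexamer AATAAA, or its variant ATTAAA, in the nascent RNA and cuts a short distance past it. Cleavage factor I and the cleavage stimulation factor bind sequences on either side, a poly(A) polymerase adds the tail, and an exonuclease that degrades the RNA left on the polymerase helps to release it. Histone mRNAs of dividing cells are cut after a stem-loop and receive no tail. Integrator carries its own endonuclease, related to that of CPSF, and ends small nuclear RNAs, enhancer RNAs and many short transcripts near gene starts.

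The mRNAs of these factors are themselves substrates of the pathway, so the signal at their annotated ends is shown first. Of the 43 genes, 36 (83.7%, 95% Wilson interval 70.0% to 91.9%) had AATAAA or ATTAAA in the last 40 bases of at least 1 complete protein-coding transcript of GENCODE M21, against 82.6% of 17493 protein-coding genes with reads. AATAAA itself was present in 33 of the 43 (76.7%), against 69.4% of all. These shares describe the annotation, and the ends used in B16F10 cells were not measured. The windows below run from 4 bases before the signal toward the transcript end, for at most 30 bases, in the last exon on GRCm38 (the mm10 build). Each comes from the longest complete protein-coding transcript of its gene that holds a signal, so annotated ends without one were passed over. The windows of Papola and Slbp lie inside the gene, whose annotated ends are at 105838944 and 33634952. The windows shown belong to the poly(A) polymerase, the nuclear exonuclease, the CPSF subunits Cpsf2 and Cpsf4 and the polymerase-binding factor Pcf11. The last are of the histone stem-loop binding protein and the endonuclease of Integrator, and the capitals mark the signal.
Papola (chr12:105834872-105834893, plus strand): gactATTAAAtttttgtttgtg
Xrn2 (chr2:147077976-147078000, plus strand): taaaAATAAAgctaaactttaaaaa
Cpsf2 (chr12:102006404-102006424, plus strand): aataAATAAAagatgctgagc
Cpsf4 (chr5:145182018-145182040, plus strand): gttgATTAAAaagcttgtttttt
Pcf11 (chr7:92643547-92643576, minus strand): cagtATTAAAacttgtgattttttttccgt
Slbp (chr5:33640056-33640085, minus strand): caaaAATAAAgaccctttaactgacttgta
Ints11 (chr4:155889074-155889103, plus strand): gcacAATAAAtgttgtacaatctccacttc

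The signal of the 36 genes began a median of 22 bases from the transcript end, with a range of 17 to 40, and the median over all 14446 genes with a signal was 23. Papola, Cpsf4 and Pcf11 show the variant ATTAAA in these windows, and Xrn2, Cpsf2, Slbp and Ints11 show AATAAA. Papola and Pcf11 also had AATAAA at the end of another annotated coding transcript, whereas Cpsf4 did not. The 7 genes without either hexamer in this window were Cpsf1, Cpsf3, Cstf2t, Lsm10, Ints1, Ints2 and Ints3. The list holds a CPSF subunit and the CPSF endonuclease, and 3 of the 14 Integrator genes. Taking only the longest transcript of each gene, 30 of the 43 genes (69.8%) had a signal, against 75.8% of all, so the count depends on which annotated end is read.

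**Figure D1:**
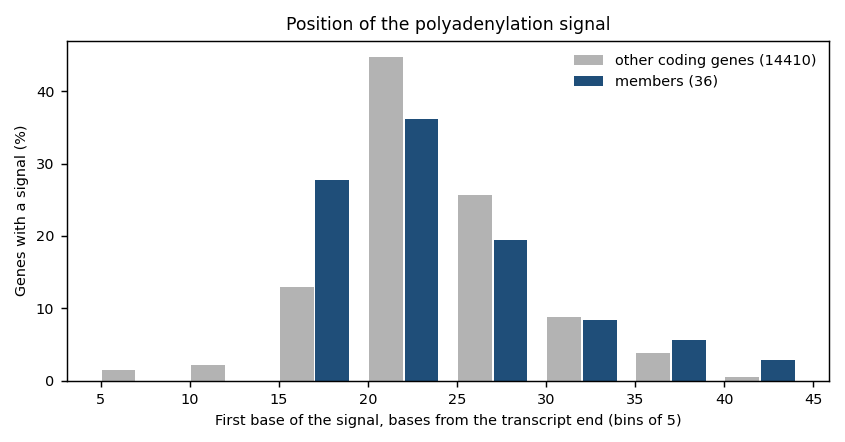
Distance of the first base of the polyadenylation signal from the annotated transcript end (x axis, bases, bins of 5), as the percentage of genes with a signal (y axis), for 36 of the 43 listed genes and for other protein-coding genes with reads. Both sets are highest between 20 and 24 bases, and the listed genes have a median of 22.

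All 43 genes were expressed. Levels ranged from a mean log2 CPM of 2.91 for Lsm10 to 8.94 for Papola, and 42 genes lay at or above 16 CPM. Voom adds 0.5 reads to each count, which gives genes without reads a shared lowest value, and from it the geometric mean of the library sizes was 19641945 reads. The listed genes therefore rested on a geometric mean of 148 (Lsm10) to 9624 (Papola) reads per library, with 0.5 added. Summed over 6 libraries, this amounts to a counting error of 3.35% and 0.416%, which covers counting only. The spread between cultures cannot be read from a mean, so no test was made between genes. The label of the line was checked against pigment cell transcripts. Tyrp1 (mean log2 CPM 12.51), Dct (12.78), Pmel (11.58) and Mlana (9.09) were among the most abundant genes, whereas the keratinocyte gene Krt5 had no reads and Ptprc, of leukocytes, averaged 1.38 reads per library with 0.5 added. Krt14, Cdh5 and Epcam lay at or below 1.98 reads on the same scale. The fibroblast genes Pdgfra and Col1a1 averaged 64.4 and 33.3 reads and the endothelial gene Pecam1 23.8 reads, which is 3.28, 1.70 and 1.21 CPM.

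To set genes side by side, the mean level was divided by the length of the union of all annotated exons, which gives RPKM, the reads per kilobase of exon scaled to a common library size as in CPM. The median of the 43 genes was 14.2 RPKM, at percentile 81.8 of the 19227 genes with reads and a known length, whose median was 1.47 RPKM. All 43 lay above that median, at percentiles from 55.8 (Lsm11) to 97.6 (Papola), and all 43 also lay above the median of protein-coding genes with reads, 2.13 RPKM. By the length of the longest protein-coding transcript this did not hold for Lsm11, whose 2.67 RPKM lay at percentile 48.8, below the median of 3.04 RPKM. The highest level was 27.8-fold the lowest (41.8-fold by the length of the longest protein-coding transcript). Of the 43 genes, 7 were in the top 10% of genes with reads: Papola, Xrn2, Pabpn1, Cpsf2, Slbp, Pcf11 and Rbbp6. By this length Integrator held 0 of the 7. By the length of the longest protein-coding transcript (the coding length), 10 of the 43 genes were in the top 10%, and Ints13 of Integrator was among them, without Cpsf2 and Pcf11 and with Cpsf3, Sympk, Cstf3 and Ssu72. The Integrator median of 10.2 RPKM was below the 16.9 RPKM of the other 29 genes, a 1.66-fold difference between medians. With the coding length the medians were 18.3 and 26.1 RPKM and the difference was 1.42-fold. Union lengths include retained introns of noncoding transcripts, and 23 genes were over 1.5 times higher by the coding length, so for those genes both values are given.

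**Figure D2:**
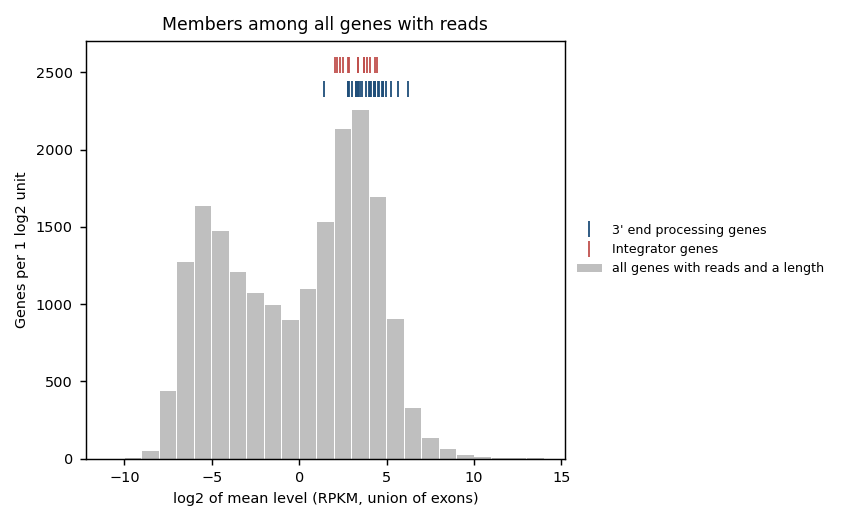
Number of genes (y axis) by log2 of the mean level in RPKM (x axis) for all genes with reads and a known length, with ticks above the bars for each 3′ end processing gene and each Integrator gene. All ticks lie in the upper of the 2 peaks, and the Integrator ticks end below those of Xrn2 and Papola.

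**Figure D3:**
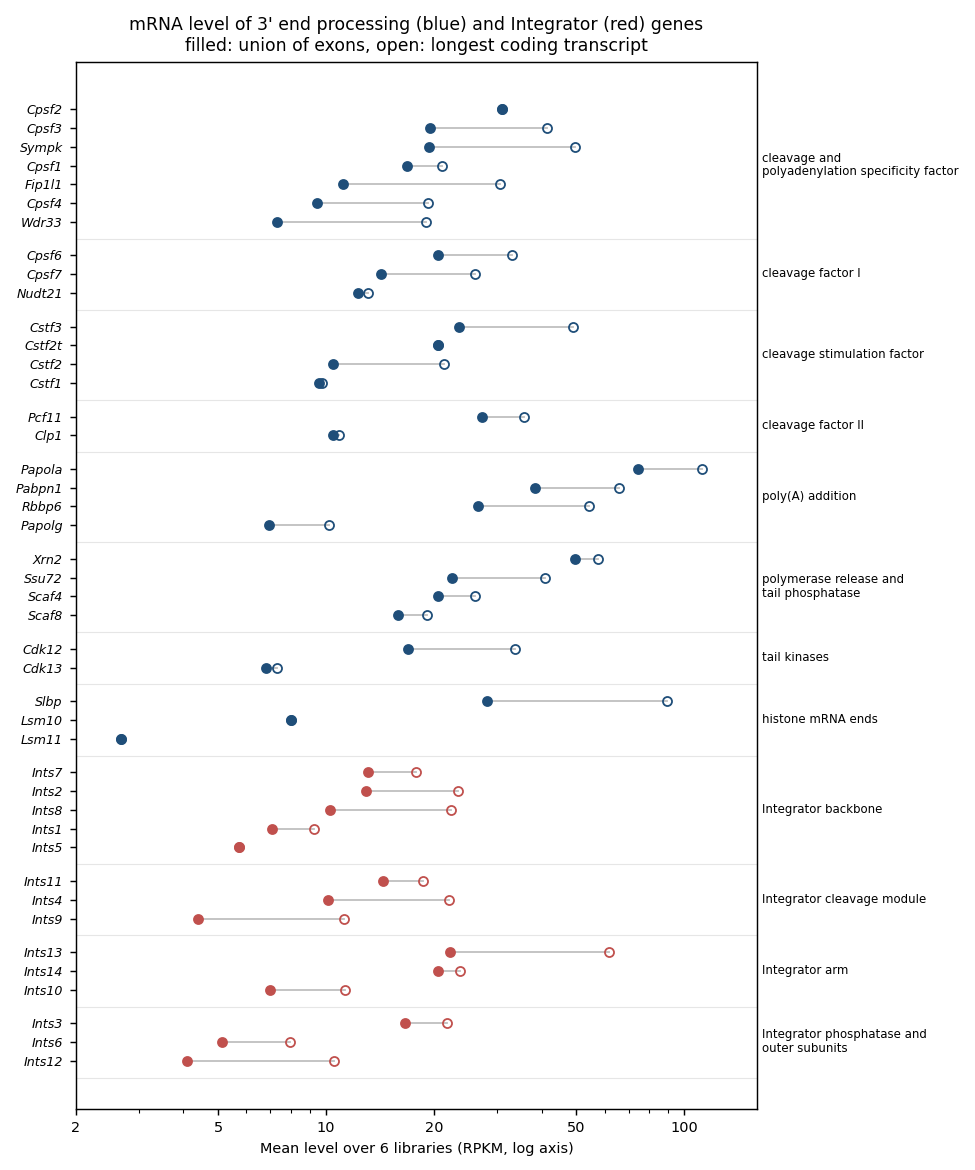
Mean level over the 6 libraries (x axis, RPKM, log axis) of each of the 43 genes, grouped by role, with filled points for the union of exons and open points for the longest protein-coding transcript. Papola is highest and Lsm11 lowest by both lengths, and a line joins the values of 1 gene.

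CPSF joins a part that recognises the signal with a part that cuts. Its 7 genes had a median of 16.9 RPKM (30.7 by the coding length), and the highest was 4.25-fold the lowest (2.61-fold by the coding length). In the recognition part, Cpsf1, the large scaffold, had 16.9 RPKM, and Fip1l1, which tethers the poly(A) polymerase, had 11.1 RPKM (30.7 by the coding length). Cpsf4 and Wdr33, which contact the hexamer, were the lowest of the complex with 9.43 and 7.31 RPKM (19.3 and 19.0 by the coding length). In the cutting part, the endonuclease Cpsf3 had 19.6 RPKM and the scaffold Sympk 19.4 RPKM, below the 31.1 RPKM of Cpsf2, the catalytically inactive partner of Cpsf3. By the coding length the order within the cutting part was the opposite, since Sympk then had 49.7, Cpsf3 41.4 and Cpsf2 31.1 RPKM.

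Cleavage factor I, which binds UGUA elements upstream of the cut, had 12.3 RPKM for its RNA-binding subunit Nudt21, 20.5 RPKM for Cpsf6 and 14.2 RPKM for Cpsf7. Nudt21 stayed lowest by the coding length (13.1 RPKM, against 33.0 for Cpsf6 and 26.1 for Cpsf7). In the cleavage stimulation factor, which binds downstream of the cut, the scaffold Cstf3 had 23.5 RPKM (49.0 by the coding length) and Cstf1 9.58 RPKM. The RNA-binding subunit is encoded by a pair of genes, X-linked Cstf2 and Cstf2t, a gene of 1 exon on chromosome 19. Cstf2t had 20.5 RPKM against 10.5 RPKM for Cstf2, but by the coding length Cstf2 had 21.3 RPKM, so their order was not settled. Both copies were well covered, with a geometric mean of 1887 reads for Cstf2 and 1708 reads for Cstf2t. Of cleavage factor II, Pcf11, which binds the polymerase tail and helps dismantle the elongation complex, had 27.3 RPKM, and the RNA kinase Clp1 had 10.4 RPKM.

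Tail synthesis held the highest level of the list. Papola, the main nuclear poly(A) polymerase, reached 74.3 RPKM (112 by the coding length), whereas its paralog Papolg had 6.94 RPKM. Their ratio was 10.7, with 11.0 by the coding length and 23.7 by the median transcript length. Pabpn1, which binds the growing tail and sets its length, had 38.4 RPKM (65.6 by the coding length). Rbbp6, a large protein that activates the CPSF endonuclease, had 26.6 RPKM (54.2 by the coding length). Before division by length its level was the second highest (mean log2 CPM 8.43). The coding length of Rbbp6 is that of a transcript with 3 exons, while its reads are those of the whole gene. The median of these 4 genes was 32.5 RPKM (59.9 by the coding length and 175 by the median transcript length), the highest of the 12 role groups.

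Among the factors that act on the polymerase, Xrn2, the exonuclease that degrades the downstream RNA, had 49.4 RPKM. Ssu72, a phosphatase of the polymerase tail that binds CPSF, had 22.4 RPKM (41.0 by the coding length). Scaf4 and Scaf8, related tail-binding proteins that restrain the use of early polyadenylation sites, had 20.5 and 15.9 RPKM, a ratio of 1.29. Cdk12 and Cdk13, the cyclin K kinases that phosphorylate the polymerase tail, had 16.9 and 6.79 RPKM. Their ratio of 2.50 rose to 4.62 by the coding length, where Cdk12 had 33.6 RPKM, and Cdk13 was the lower of the pair by each length but the median transcript length.

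The histone branch was also uneven. Slbp, which binds the stem-loop of histone mRNA, had 28.1 RPKM (89.5 by the coding length), whereas Lsm10 and Lsm11, the proteins particular to the small nuclear ribonucleoprotein that cuts histone pre-mRNA, were lower. Lsm10 had the fewest reads of the list (mean log2 CPM 2.91) and lay at percentile 71.8 per length, and Lsm11, with 2.67 RPKM, was the lowest of all 43 genes per length. The highest of the 3 was 10.5-fold the lowest, and 33.5-fold by the coding length.

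Integrator levels spanned 5.42-fold by the union length and 10.8-fold by the coding length. Of the backbone, which organises the complex, Ints7 and Ints2 had 13.1 and 13.0 RPKM, Ints8 10.3 RPKM, Ints1 7.09 RPKM and Ints5 5.73 RPKM. By the coding length Ints2 had 23.3 and Ints8 22.4 RPKM, and Ints5 was the lowest Integrator gene. In the cleavage module, the endonuclease Ints11 had 14.4 RPKM, the scaffold Ints4 10.1 RPKM and Ints9, the inactive partner of Ints11, 4.39 RPKM. Ints9 remained lowest of the module by the coding length, at 11.2 RPKM against 18.7 for Ints11 and 22.0 for Ints4. The arm, a module at the edge of the complex, held the highest Integrator genes by the union length, Ints13 with 22.2 RPKM and Ints14 with 20.5 RPKM. Ints10, also of the arm, had 6.99 RPKM. By the coding length Ints13, Ints14 and Ints10 had 61.7, 23.7 and 11.3 RPKM. By the median transcript length the arm had the lowest median of the Integrator modules, 23.8 RPKM, and Ints2 (198 RPKM) exceeded Ints13 (188 RPKM). Ints6, which helps to hold a protein phosphatase on the complex, had 5.14 RPKM (7.93 by the coding length). Ints12, a subunit with a zinc finger of the PHD type, had 4.10 RPKM (10.5 by the coding length), and Ints3, which also serves in a complex that binds single-stranded DNA, had 16.7 RPKM.

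CPSF and Integrator each pair an active endonuclease with an inactive relative. Cpsf3 was 1.36-fold Ints11, and Cpsf2 was 7.07-fold Ints9. By the coding length the ratios were 2.21 and 2.78. In both comparisons the CPSF gene was the higher by every length used.

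**Figure D4:**
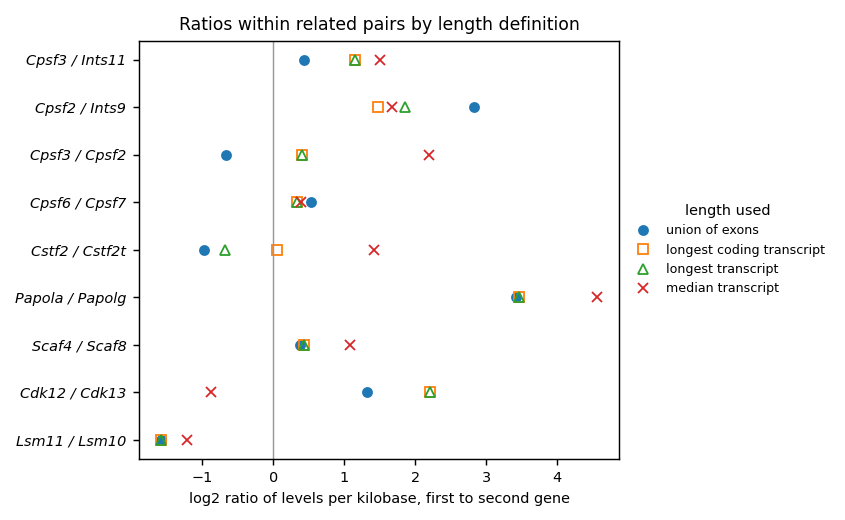
log2 ratio of levels per kilobase (x axis) within 9 pairs of related or partner genes (y axis), with a symbol for each of 4 ways to set the length of a gene. Papola lies above Papolg and Lsm11 below Lsm10 by all 4, whereas Cpsf3 to Cpsf2, Cstf2 to Cstf2t and Cdk12 to Cdk13 fall on both sides of 0.

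A list of 47 other genes of the pathway, all of which had reads, held mostly genes of neighbouring steps (pausing, cap binding, tail binding and termination). It also held the Integrator genes Ints15 and Ints6l and genes of histone pre-mRNA processing such as Zfp473. Their median was 16.4 RPKM, near that of the listed genes, and 46 of the 47 lay above the median of genes with reads. By the coding length their median was 26.8 RPKM, against 21.8 RPKM for the listed genes. The highest was Pabpc1, the cytoplasmic poly(A)-binding protein, with 357 RPKM (828 by the coding length). The phosphatase subunits Ppp1ca and Ppp1cc followed with 96.0 and 90.3 RPKM (164 and 130 by the coding length). Zfp473, a zinc finger protein, was lowest by the union length with 0.425 RPKM, followed by Dxo, a decapping exonuclease, with 3.59 RPKM. Next came Tent4a, a noncanonical poly(A) polymerase, with 5.56 RPKM. Zfp473 was thus the exception below the median of genes with reads. By the coding length Tent4a (10.4 RPKM) lay above Rprd1a (9.19 RPKM) and Ccnt1 (8.83 RPKM).

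The genes lie on 20 chromosomes. Of the 43, 7 (16.3%) have a protein-coding gene that starts on the other strand within 1000 bases upstream, against 8.16% of protein-coding genes with reads: Cpsf4, Nudt21, Sympk, Cstf1, Ints7, Ints9 and Ints11. The gene ends of Cpsf1, Cstf2, Scaf4 and Ints14 lie within 1000 bases of the end of a facing protein-coding gene (9.30%, against 10.7% of all). RefSeq promoters of GRCm38.p6, from 250 bases before to 50 after the start, were matched for 37 of the genes and had a median GC content of 63.3%, against 58.3% over 15254 genes with reads, with a median of 26 against 17 CG pairs. Searched on both strands, TATAAA was in 0 of the 37 and in 9.38% of all promoters. CCGGAAGT was in 6 of the 37 (16.2%; Cstf3, Xrn2, Ints1, Nudt21, Cpsf3 and Cpsf7), against 6.17% of all, and GGGCGG in 24 (64.9%), against 53.6%. The other motifs searched were CACGTG (2 of the 37, 5.41%, against 8.98% of all), AAGATGGC (2, 5.41%, against 3.60%) and TGACGTCA (1, 2.70%, against 2.69%). A match is a run of letters and not a measured binding site.

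Some reads cannot be assigned with certainty. Exons of 17 of the 43 genes overlap exons of a gene on the opposite strand, and strand use in counting is not stated. The share of the member's exon bases was largest for Ints11, where Pusl1 covers 22.7%, and 15.1% for Ssu72. Ints11 had a mean log2 CPM of 5.47 and Pusl1 of 1.32. On the same strand, Pabpn1 shares 21.5% of its exon bases with the gene model Gm20521 and Ints5 shares 14.3% with Gm49416. Transcripts of 6 of the 43 genes match a gene elsewhere at 95% identity or more over at least 150 bases. For Slbp, Nudt21, Ints14, Scaf8 and Ints5 the match is an annotated pseudogene. The match of Nudt21 to Gm7488 was 100% over 684 bases, and that of Ints5 to Gm13126 was 96.1% over 3039 bases. Clp1 matches stretches of 150 to 155 bases in other genes, among them Bclaf1, Npepps and Mga, whose mean log2 CPM was 8.28, 7.29 and 7.20. Nudt21 also matches Mrtfb (6.22 on that scale) over 160 bases. How reads were divided between these genes and their matches was not tested.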

How the data were processed

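Total RNA of 6 cultures was sequenced after libraries were made with a directional kit. According to the methods and the submitters' processing notes, the authors aligned reads to mm10 with HISAT2 (2.1.0), counted with featureCounts (2.1.1) and used limma-voom (3.58.1). A UCSC mm10 annotation and TPM scaling are stated for a StringTie (1.3.4d) step. For featureCounts and limma-voom, the strand setting, annotation and scaling are not given in the sources used here. The deposited table holds 1 row per gene with the authors' mean log2 CPM over both groups, which is used here, and the authors' comparison of OZO with OLO (fold changes, statistics and p-values), which is not used. Values of single libraries and proteins were not analysed here, so no model was fitted.

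Of the 24126 rows with an Ensembl identifier, 23906 were found in GENCODE M21 (GRCm38), whose exons gave the lengths. RPKM was 2 to the power of the mean, divided by kilobases. Percentiles leave out the 6025 genes without reads and those without a length, so that 19227 of the 21154 genes with reads remain. The Wilson interval is at 95% and is over genes, and counting errors cover the reads only. The members and lists were chosen with earlier results of these data known, and promoter, neighbour and copy searches were added after levels were seen. All listed genes are named, with the 3 highest and 3 lowest of the other pathway genes by the union length. Copies were searched with BLAST (2.17.0). The recovery of library size was run on data simulated with the same voom formula, so it checked the arithmetic and not the authors' scaling. Python 3.11.15, numpy 2.4.6, pandas 2.3.3 and scipy 1.17.1 were used.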

Additional observations from a re-analysis of the deposited data

How the results depend on the processing

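No paired analysis was possible because the table gives 1 mean per gene over all libraries. For the same reason no test of OZO against OLO was refitted with another normalization or count filter, and no library was left out. The authors' own test of OZO against OLO in the same table was set aside. The protein comparison in the plan was not run.

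Levels per length moved with the length used. For all listed genes, for Integrator and for the other 29 genes, the median RPKM was 14.2, 10.2 and 16.9 with the union of exons. With the longest transcript, and with the longest protein-coding transcript (chosen after seeing the data), it was 21.8, 18.3 and 26.1, and with the median transcript 55.0, 34.2 and 74.1. With the union of exons, the median of the other 29 genes was 18.2 RPKM without the member with the fewest reads, against 16.9 with it. Taking off the 0.5 reads of voom left all 3 union medians within counting error. The percentiles of the 3 medians, 81.8, 76.2 and 84.4 among genes with reads, were 85.3, 80.8 and 87.4 among all rows. They were 69.5, 60.1 and 73.8 among genes of at least 1 CPM, and 80.3, 74.2 and 83.0 among protein-coding genes with reads. By the coding length, among genes with such a length, the percentiles were 80.8, 77.6 and 84.0.

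Of 27 log2 ratios within pairs under another length, 6 changed sign. Cpsf3 to Cpsf2 went to 0.41 with the longest and the longest coding transcript and to 2.20 with the median transcript. Cstf2 to Cstf2t went to 0.055 with the coding and 1.42 with the median transcript, and Cdk12 to Cdk13 went to -0.88 with the median transcript. Of 60 role group medians under an alternative, 14 stayed within counting error, among them the 12 without the voom offset, and 45 were higher. The 1 lower median was that of polymerase release and tail phosphatase without its member with the fewest reads (20.5 against 21.5 RPKM). A single transcript is never longer than the union of exons, so the transcript lengths could only keep or raise a median. Taking off the offset could only lower it. The share of listed genes with a polyadenylation signal was 83.7% in the last 40 or 50 bases, 69.8% in the longest transcript and 76.7% with AATAAA alone, the last chosen after seeing the data.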
